A study of Rattus norvegicus with 30 samples.

Results

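The transcriptome of the rat testis was compared between 24.5 and 30.5 days post partum (dpp), the interval in which the first round spermatids appear in this species. The compared libraries were the 6 that the sample labels place at these ages without culture, 3 per age, out of 30 libraries in the series. Both groups are testes of Wistar Han rats that received no treatment, and the study used a different testis for each library. The series holds testes of other ages (8.5, 14.5, 36.5 and 53.5 dpp) and explants cut from testes of 8.5 dpp and kept on agarose for 6, 16, 22 or 28 days (D6 to D28), of which each library pools several explants. The explants of D16 and D22 match 24.5 and 30.5 dpp in total age. Polyadenylated RNA was sequenced, and the deposited value of each gene is its FPKM, the fragments mapped to it, scaled by its length and by the size of the library. All changes are given as differences of log2(FPKM + 1), with the standard error of the fit.

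In the first wave of spermatogenesis all germ cells advance nearly together, so that a testis of a given age is enriched in the most advanced cell reached so far. A spermatocyte spends a long prophase pairing and recombining its chromosomes, passes pachytene and diplotene, and divides without an intervening round of DNA replication to give haploid round spermatids. A round spermatid then builds an acrosome, the vesicle that later opens at the egg, assembles a flagellum around a ring of microtubule doublets, and finally replaces its histones first with transition proteins and then with protamines. Sertoli cells are the somatic cells that carry the germ cells inside the tubule, and Leydig cells outside it make testosterone.

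Many spermatid genes were listed at or near 0 in every library of 24.5 dpp and were measured well above it in every library of 30.5 dpp. Hils1, a linker histone of spermatids, measured 0.530, 0.985 and 0.514 FPKM at 24.5 dpp and 143, 428 and 251 FPKM at 30.5 dpp. Spam1, a hyaluronidase of the sperm head, measured 0.0913, 0.178 and 0.125 FPKM and then 62.9, 116 and 101 FPKM. The ages did not overlap for either gene, and the log2 change was 7.23 ± 0.37 (limma adjusted p = 3.3e-05) for Hils1 and 6.33 ± 0.22 (limma adjusted p = 2.1e-05) for Spam1. In bulk tissue a larger number of cells of a type and more RNA per cell cannot be told apart, which holds for every change given here.

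Of 11492 genes tested, 1553 were called higher at 30.5 dpp (13.5%) and 2926 were called lower (25.5%), a call being a limma adjusted p of at most 0.05 with a ratio of the group medians of at least 2. In 2635 genes (22.9%) every library of 30.5 dpp was above every library of 24.5 dpp, and in 5952 genes (51.8%) every library was below. The falls were numerous and small, and the rises were fewer and large. The median log2 change of the called genes was 1.57 for those higher and −1.08 for those lower, 67 genes rose by at least 5 on the log2 scale, and 24 genes fell by at least 2. The median of all genes tested was itself −0.39. FPKM values are shares of a library, and the genes called higher held 6.57 to 10.1% of the summed FPKM in the libraries of 24.5 dpp and 25.5 to 33.6% in those of 30.5 dpp, while the genes called lower went from 20.1 to 25.3% down to 7.32 to 9.86%. Both sets were called from these same libraries, so the selection fixed the direction of these shares, and only their size is described. With each library centred on its own median gene, 2296 genes were called higher (20%) and 567 lower (4.93%), and the part of the calls that were rises went from 34.7% to 80.2%. All 567 lower calls after centring and 1545 of the higher ones were also calls in the values as deposited. Counts after centring, which are relative to that shift, are given below beside the groups in which most calls were falls.

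The libraries within an age agreed closely, with Pearson correlations over genes between 0.960 and 0.976. Replicate 3 of 24.5 dpp and replicate 1 of 30.5 dpp had the lowest, and replicate 2 of each age the highest, share of the genes called higher. Between 12940 and 13304 genes were above 0 in these 6 libraries. Among genes under 0.2 FPKM, the commonest ratio of a library's value to that of replicate 1 of 24.5 dpp was between 0.798 and 1.09. A smaller ratio goes with a deeper library. Only 6.92 to 9.85% of these genes lay in the commonest bin, so the ratios are rough. The defining genes of spermatocytes (Sycp3), Sertoli cells (Clu) and Leydig cells (Insl3) were above 0 in all 6, at no less than 251, 520.0 and 7.18 FPKM. No read totals are among the values used, so the absolute depth is unknown. Some exact zeros stood beside high values of the same age, as in Spa17, a sperm surface protein chosen after its values were seen, with 0, 362 and 159 FPKM at 24.5 dpp and 409, 0 and 413 FPKM at 30.5 dpp. There were 65 tested genes with a library at 0 and another of the same age at 10 FPKM or more, so a 0 is read below as a listed value and not as absence.

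The promoters of the genes called higher, of those called lower and of all genes tested were examined for the sites of known spermatid regulators. In the background knowledge of this tissue, CREM binds the palindromic cAMP response element, RFX factors bind the X-box, and MYBL1, which acts in pachytene spermatocytes, binds the MYB motif. RefSeq promoters (GRCr8, 250 bases before to 50 bases after the start, the first listed start of each gene) were at hand for 1275 of the 1553 genes called higher. The response element TGACGTCA was searched on both strands. It was found in 2.67% of the genes called higher, in 2.90% of those called lower, in 3.17% of all genes tested and in 1.91% of all 27457 promoters. Its first letters alone, TGACG, which every match of the whole element contains, were in 24% of the genes called higher and 31.5% of all genes tested. The letters GTTGCC are a short part of the X-box and not a whole site. They were in 17.5% of the genes called higher, 11.1% of those called lower and 13.3% of all tested. The MYB motif CNGTTG, which can overlap them, was in 43.7%, 31.0% and 35.7%. These shares are descriptions without a test, and they say nothing of whether a factor was bound.

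Of the 131 genes in the lists described below that were called higher and had a promoter, 31 held GTTGCC and 4 held the whole response element. Among all genes tested, 9419 had a promoter, of which 1256 held GTTGCC and 299 (3.17%) the response element. The share of list genes with the response element is thus near that of all genes tested. The windows around the first match are printed because they show the element in a gene of the nucleus (Tnp1), in genes of the acrosome and the sperm membrane (Lyzl6, Izumo1) and in a gene of the flagellum (Spag6l). Each is given 5′ to 3′ on the strand of the gene, with the element in capitals.
Tnp1: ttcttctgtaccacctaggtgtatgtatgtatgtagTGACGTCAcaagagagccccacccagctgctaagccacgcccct
Lyzl6: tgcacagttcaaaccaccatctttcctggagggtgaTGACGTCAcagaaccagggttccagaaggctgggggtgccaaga
Izumo1: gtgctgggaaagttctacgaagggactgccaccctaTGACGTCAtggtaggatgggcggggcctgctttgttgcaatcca
Spag6l: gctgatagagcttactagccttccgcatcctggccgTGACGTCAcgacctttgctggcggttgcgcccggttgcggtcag
The Tnp1 window is chr9:82044348-82044427 of the minus strand, and the element begins 113 bases before the start of the transcript. The Lyzl6 window is chr10:89049265-89049344 of the minus strand, with the element 98 bases before the start. The Izumo1 window is chr1:105227468-105227547 and the Spag6l window chr11:97677697-97677776, both on the plus strand, with the element 99 and 107 bases before the start. GTTGCC is shown in the 2 listed genes with the largest rise that held it, Prm3 and Spz1. Prm3 is named after the protamines, and Spz1 is a transcription factor of spermatids.
Prm3: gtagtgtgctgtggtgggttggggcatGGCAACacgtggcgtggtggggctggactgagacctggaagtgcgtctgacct
Spz1: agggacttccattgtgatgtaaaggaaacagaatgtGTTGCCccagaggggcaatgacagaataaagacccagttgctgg
The Prm3 window is chr10:5384144-5384223 of the plus strand, where the match lies on the opposite strand 223 bases before the start, and the Spz1 window is chr2:25533446-25533525 of the minus strand, with the match 96 bases before the start. All 6 genes were called higher at 30.5 dpp.

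**Figure D1:**
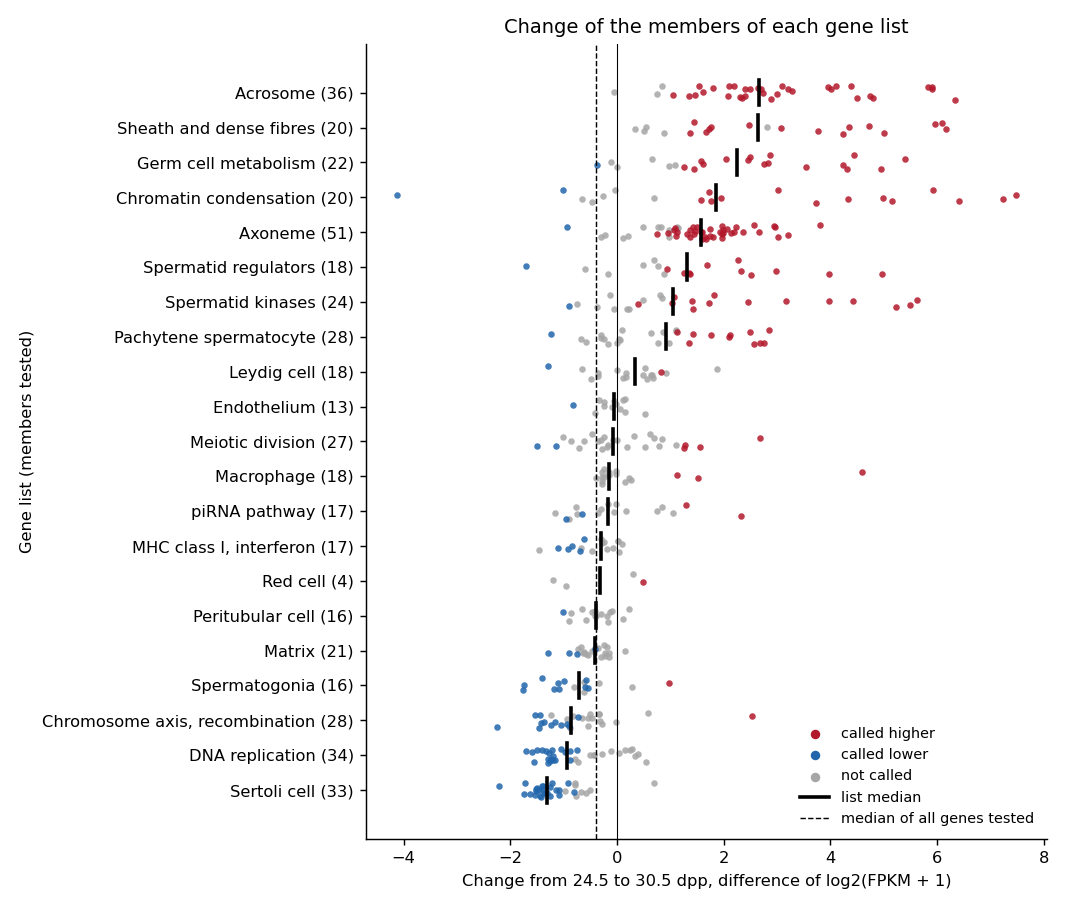
Change from 24.5 to 30.5 dpp of every tested member of 21 gene lists, as the difference of log2(FPKM + 1) on the x axis, with 1 point per gene coloured by its call, a bar at the list median and a dashed line at the median of all genes tested (−0.39). The acrosome list has the highest median (2.67) and the Sertoli cell list the lowest (−1.32), and the lists of pachytene, spermatid and flagellum genes are the ones with medians above 0.9.

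Acrosome genes rose nearly throughout. Of 36 tested, 33 were called higher and none lower, the median log2 change was 2.67, and the ages did not overlap in 35 of them. Their summed FPKM was 1767, 2069 and 1189 at 24.5 dpp and 4951, 6008 and 5155 at 30.5 dpp. Acrv1, the acrosomal vesicle protein, was listed at 0, 0.227 and 0.0679 FPKM at 24.5 dpp and measured 41.7, 82.1 and 65.3 FPKM at 30.5 dpp, a log2 change of 5.82 ± 0.24 (limma adjusted p = 2.1e-05). Acr, which encodes the protease acrosin, was already present at 24.5 dpp, with 25.9, 31.5 and 16.7 FPKM, and measured 109, 135 and 123 FPKM at 30.5 dpp. Its change of 2.30 ± 0.23 (limma adjusted p = 0.00043) corresponded to a 4.94-fold higher mean. Spaca4, a membrane protein of the sperm head, went from 0.0569, 0.109 and 0.111 FPKM to 38.2, 99.9 and 70.5 FPKM. Gopc, a Golgi protein needed to form the acrosome, measured 20.6, 25.2 and 20.9 FPKM and then 22.9, 19.7 and 21.1 FPKM, with overlapping ages and a change of −0.06 ± 0.13 (limma adjusted p = 0.70). Izumo1, the sperm protein that binds the egg, measured 0.358, 0.183 and 0.199 FPKM and then 12.7, 27.0 and 20.2 FPKM.

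The genes of chromatin condensation split between those of the spermatid nucleus, which rose by the largest amounts, and general chromatin genes. Of 20 tested, 13 were called higher and 2 lower, with a median of 1.85. Tnp1, transition protein 1, was listed at 0 in all 3 libraries of 24.5 dpp and measured 80.2, 423 and 164 FPKM at 30.5 dpp. Prm1 and Prm2, the protamines, were also listed at 0 in every library of 24.5 dpp. At 30.5 dpp Prm1 measured 8.75, 151 and 29.5 FPKM and Prm2 measured 3.19, 44.5 and 11.3 FPKM, so that replicate 2 exceeded replicate 1 by more than 10 times in each. Tnp2, transition protein 2, went from 2.16, 1.21 and 1.48 FPKM to 17.2, 224 and 34.1 FPKM, a change of 4.34 ± 0.83 (limma adjusted p = 0.0031). Hmgb4 and H1f7, a high mobility group protein and a linker histone of spermatids, varied less between replicates. Hmgb4 measured 67.4, 186 and 113 FPKM and H1f7 measured 38.8, 133 and 73.8 FPKM at 30.5 dpp, from 0.439 FPKM or less in each library of 24.5 dpp. Hmgb2, a high mobility group protein of earlier germ cells, measured 79.8, 81.8 and 80.3 FPKM at 24.5 dpp and 1.55, 39.7 and 0 FPKM at 30.5 dpp, a fall with a wide spread (−4.12 ± 1.20, limma adjusted p = 0.018).

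At 30.5 dpp these nuclear genes were still far from their level in the oldest testes. The mean of 30.5 dpp was 2.41% of that of 53.5 dpp for Tnp1, 2.12% for Tnp2, 1.29% for Prm1 and 2.26% for Prm2, against 19.3% for Hils1. Tnp1 measured 9491, 11143 and 6990.3 FPKM at 53.5 dpp.

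**Figure D2:**
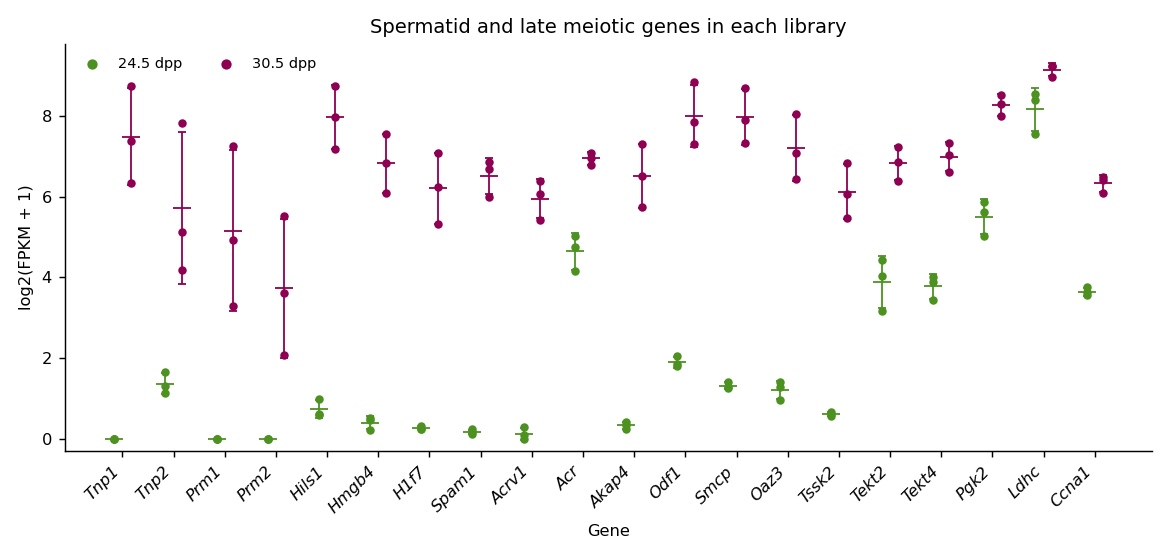
Level of 20 spermatid and late meiotic genes in each library, as log2(FPKM + 1) on the y axis, with a point per library and a bar at the mean ± SD (n = 3) for 24.5 and 30.5 dpp. The ages do not overlap for any of these genes, and the protamine and transition protein genes have the widest spread at 30.5 dpp.

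The fibrous sheath and the outer dense fibres stiffen the tail of the sperm, and their genes rose by amounts close to those of the acrosome. Of 20 tested, 15 were called higher and none lower, and the median was 2.64. Akap4, the main protein of the fibrous sheath, measured 0.282, 0.333 and 0.186 FPKM at 24.5 dpp and 52.1, 157 and 89.5 FPKM at 30.5 dpp, a change of 6.17 ± 0.36 (limma adjusted p = 5.2e-05). Odf1, of the outer dense fibres, measured 2.60, 3.16 and 2.49 FPKM and then 157, 452 and 228 FPKM (6.09 ± 0.35, limma adjusted p = 5.3e-05). Oaz3, an inhibitor of polyamine synthesis in spermatids, measured 1.64, 0.958 and 1.45 FPKM and then 85.1, 264 and 135 FPKM. Replicate 2 was the highest and replicate 1 the lowest of the 30.5 dpp libraries in all 3 genes. The level at 30.5 dpp was 9.65% of that at 53.5 dpp for Akap4, 5.39% for Odf1 and 3.47% for Oaz3.

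Axoneme genes had begun to rise earlier and rose by less. Of 51 tested, 39 were called higher and 1 lower, with a median of 1.57, and 46 were called higher after centring. Tekt2 and Tekt4, tektins of the microtubule doublets, measured 15.3, 20.6 and 8.02 FPKM and 13.7, 15.2 and 9.81 FPKM at 24.5 dpp. At 30.5 dpp Tekt2 measured 82.6, 148 and 115 FPKM (2.94 ± 0.35, limma adjusted p = 0.0007) and Tekt4 measured 96.4, 159 and 129 FPKM (3.21 ± 0.23, limma adjusted p = 0.00011). Pierce1, a protein inside the doublets, had the largest change of the list, from 1.35, 1.79 and 0.895 FPKM to 23.8, 37.7 and 34.1 FPKM (3.80 ± 0.22). Tekt5 was lower in level than these, with 5.46, 19.2 and 8.75 FPKM at 30.5 dpp. Ccdc39, which sets the spacing of the axonemal dynein arms, measured 13.7, 20.8 and 15.4 FPKM and then 22.4, 16.8 and 14.8 FPKM and was not called (0.11 ± 0.21, limma adjusted p = 0.66). Spag6l, of the central pair, rose from a mean of 75.9 FPKM to 161 FPKM.

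Germ cells replace several enzymes of energy metabolism by isozymes of their own, and 16 of 22 tested members of that list were called higher and 1 lower, with a median of 2.26. Pgk2, the phosphoglycerate kinase of germ cells, went from 48.1, 57.7 and 31.5 FPKM to 254, 367 and 310.3 FPKM (2.76 ± 0.24, limma adjusted p = 0.00028). Gapdhs, the sperm glyceraldehyde phosphate dehydrogenase, went from 0.302, 1.24 and 0.239 FPKM to 14.1, 47.4 and 31.4 FPKM (4.23 ± 0.43, limma adjusted p = 0.00048). Slc16a7, a monocarboxylate transporter, went from 0.498, 0.486 and 0.208 FPKM to 26.7, 64.1 and 42.2 FPKM. Atp1a4, the sodium pump subunit of sperm, went from 0.204, 0.184 and 0.0397 FPKM to 17.0, 32.5 and 17.9 FPKM. Other isozymes were already high at 24.5 dpp and were not called. Ldhc, the lactate dehydrogenase of germ cells, measured 336, 368 and 187 FPKM and then 603, 601 and 492 FPKM, with ages that did not overlap but a ratio of medians under 2. Pdha2, the pyruvate dehydrogenase subunit of germ cells, measured 126, 132 and 98.2 FPKM and then 133, 105 and 117 FPKM, and Cyct, the testis cytochrome c, measured 134, 146 and 106 FPKM and then 139.8, 104 and 113 FPKM. The median level of the list at 30.5 dpp was 54.8% of that at 53.5 dpp.

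The somatic counterparts, which were chosen for comparison after their values had been seen, were called lower or not called. Cycs, the somatic cytochrome c, went from 44.8, 46.6 and 41.6 FPKM to 21.0, 16.8 and 21.7 FPKM (−1.13 ± 0.14, limma adjusted p = 0.00079). Pdha1 measured 11.6, 10.2 and 12.7 FPKM and then 5.83, 4.23 and 6.07 FPKM and was not called, its ratio of medians being under 2. Neither was called lower after centring. Ldha, the lactate dehydrogenase of muscle and many other cells, measured 57.0, 54.7 and 36.3 FPKM and then 88.5, 107 and 107 FPKM, and was called higher only after centring.

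Among kinases, phosphatases and regulators of spermatids, 14 of 24 were called higher and 1 lower, with a median of 1.06. The testis specific serine kinases rose together. Tssk2 went from 0.496, 0.594 and 0.545 FPKM to 43.5, 113 and 65.5 FPKM (5.49 ± 0.31, limma adjusted p = 5e-05), and Tssk1b from 1.04, 1.07 and 0.941 FPKM to 50.3, 108 and 77.4 FPKM (5.24 ± 0.26, limma adjusted p = 3.1e-05). Tssk4 measured 19.2, 41.6 and 37.9 FPKM and Tssk3 measured 17.6, 46.4 and 32.1 FPKM at 30.5 dpp, from at most 3.20 FPKM in any library of 24.5 dpp. These kinases share sequence with one another, and 50-base reads can be split between close copies. Spata20, a thioredoxin-like protein of spermatids, went from 1.35, 1.62 and 2.47 FPKM to 86.9, 236 and 124 FPKM. Pdpk1, a kinase of most cells, measured 12.5, 15.8 and 15.1 FPKM and then 11.7, 17.8 and 12.8 FPKM and was not called.

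Transcription regulators of round spermatids were called higher in 11 of 18 and lower in 1, with a median of 1.3. Camk4, a calcium dependent kinase that acts on CREM, went from 3.98, 4.12 and 2.96 FPKM to 50.9, 95.4 and 75.9 FPKM (3.97 ± 0.24, limma adjusted p = 5.9e-05). Fhl5, the coactivator of CREM, was listed at 0 in every library of 24.5 dpp and measured 2.27, 25.0 and 4.74 FPKM at 30.5 dpp. Gtf2a1l, the germ cell subunit of a general transcription factor, went from 44.2, 55.3 and 31.6 FPKM to 176, 232 and 225 FPKM (2.27 ± 0.22, limma adjusted p = 0.0004). Sox5 went from 3.34, 3.25 and 1.99 FPKM to 13.5, 29.4 and 22.4 FPKM. Crem itself varied more within an age than between ages, with 12.9, 13.5 and 8.41 FPKM at 24.5 dpp and 25.8, 8.42 and 1.20 FPKM at 30.5 dpp (−0.59 ± 0.80, limma adjusted p = 0.53). A gene value does not separate the activating from the repressing isoforms of Crem. Taf7l, a general transcription factor subunit of germ cells, was the member called lower, with 85, 88.2 and 129.9 FPKM and then 34.0, 25.5 and 30.5 FPKM.

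The share of the oldest testes' level reached at 30.5 dpp ordered the spermatid lists. It was 107% as a median over the members for the axoneme and 106% for the regulators, 59.1% for the kinases, 54.8% for the metabolic isozymes and 40.0% for the acrosome. It was 25.2% for the sheath and fibres and 19.7% for chromatin condensation. At 24.5 dpp the corresponding medians were 38.2%, 44.3%, 28.6%, 11.8%, 3.15%, 0.692% and 0.514%. These percents compare shares of libraries. The 10 most abundant genes held 4.33 to 4.64% of the summed FPKM at 30.5 dpp and 10.5 to 11.9% at 53.5 dpp, which leaves less for other genes. The part of this in the percents was not tested. The highest mean of the in vivo ages fell at 53.5 dpp for 26 of 36 acrosome genes, 16 of 20 sheath and fibre genes and 14 of 20 genes of chromatin condensation, and for 8 of 51 axoneme genes, of which 19 were highest at 30.5 dpp and 21 at 36.5 dpp.

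**Figure D3:**
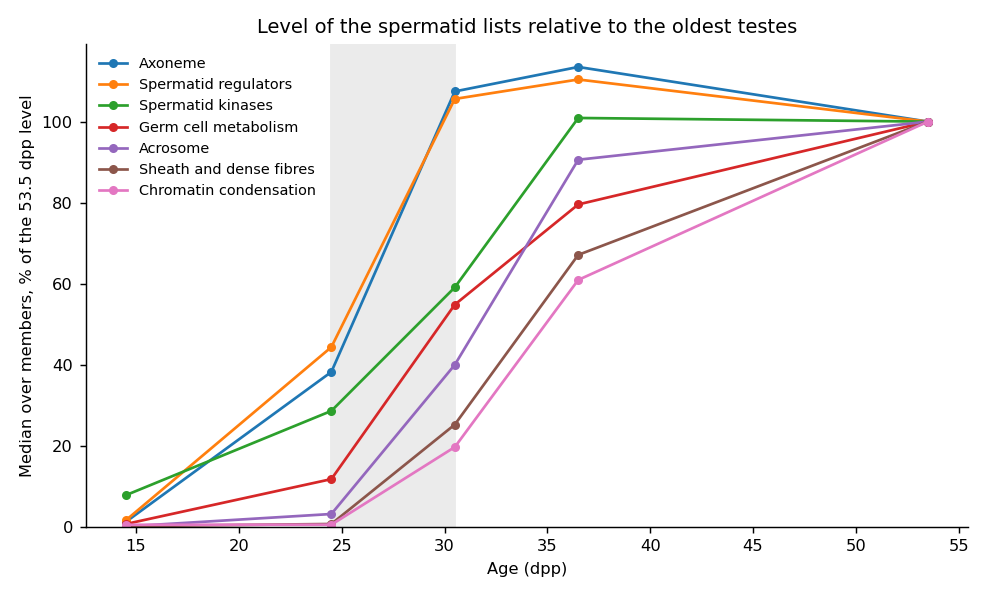
Median over the tested members of 7 spermatid lists of the mean FPKM at each age as a percent of the mean at 53.5 dpp, against age in dpp, with the interval from 24.5 to 30.5 dpp shaded and the last point at 100 by construction. Axoneme genes and spermatid regulators were above 100% at 30.5 dpp (107% and 106%), and chromatin condensation genes stood at 19.7%. The percents compare shares of libraries and not amounts of RNA per testis.

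Genes of pachytene and diplotene spermatocytes rose in part, and many of the risers are counted in other lists too. Pgk2, Ccna1, Tbpl1, Meig1, Spag6l, Adam2 and Tesk2 are shared with the lists of metabolism, division, spermatid regulators, axoneme, acrosome and kinases. Sycp1, the member called lower, is shared with the axis and recombination list. Of 28 tested, 11 were called higher and 1 lower, with a median of 0.92, and after centring 17 were higher and none lower. Ccna1, the cyclin of the first meiotic division, went from 10.7, 12.5 and 11.3 FPKM to 66.6, 88.9 and 83.4 FPKM (2.68 ± 0.15, limma adjusted p = 4.3e-05). Meig1, a partner of the flagellum assembly machinery, went from 50.9, 60.7 and 32.3 FPKM to 330.5, 295 and 229.5 FPKM (2.58 ± 0.25, limma adjusted p = 0.0004). Hspa2, the heat shock protein that accompanies the synaptonemal complex, was among the most abundant of these genes, with 1050.2, 1121 and 752 FPKM and then 1726, 1830.5 and 1697 FPKM. Its ages did not overlap, but the ratio of medians was under 2 and it was called only after centring. In the division list 4 of 27 were called higher and 2 lower, a share of rises near the 13.5% of all genes tested, and after centring 10 were higher and 1 lower. The rises as deposited were of Ccna1, Plk1, Aurka and Ube2c. Plk1, a kinase of the division spindle, went from 11, 8.01 and 11.6 FPKM to 24.6, 37.6 and 33.6 FPKM (1.55 ± 0.20, limma adjusted p = 0.00092), and Aurka, another such kinase, from 30.2, 26.4 and 30.5 FPKM to 78.1, 72.6 and 63.3 FPKM. Cdk1, the kinase that they act with, measured 17.9, 15.6 and 18.9 FPKM and then 16.3, 17.9 and 17.7 FPKM. The median of the division list was −0.08, and it was 0.42 after centring and 0.01 after quantile normalization.

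Genes of the chromosome axis, synapsis and recombination moved the other way. Of 28 tested, 12 were called lower and 1 higher, with a median of −0.85, and 6 were lower after centring. Sycp3, the lateral element of the synaptonemal complex, measured 475, 460.2 and 461 FPKM at 24.5 dpp and 266, 251 and 268 FPKM at 30.5 dpp. The ages stood apart, yet the ratio of medians was under 2 and the gene was not called (−0.83 ± 0.11, limma adjusted p = 0.00091). Dmc1, the meiotic recombinase, fell from 20.4, 22.3 and 24.5 FPKM to 8.72, 6.60 and 7.66 FPKM (−1.44 ± 0.14, limma adjusted p = 0.00041). Prdm9, which marks the sites of recombination, fell from 12.0, 13.3 and 16.5 FPKM to 6.26, 3.80 and 3.83 FPKM (−1.42 ± 0.20, limma adjusted p = 0.0011), and Syce2, of the central element, from 79.6, 79.4 and 77.7 FPKM to 28.2, 23.1 and 28.1 FPKM. All 3 were also called lower after centring. Rec8, a meiotic cohesin, was the member called higher, with 1.91, 2.98 and 0 FPKM and then 10.1, 14 and 12.7 FPKM. Stag3, another cohesin of meiosis, measured 58.2, 63.6 and 56.8 FPKM and then 61.9, 60.7 and 53.6 FPKM. In 23 of the 28 genes the highest mean of all in vivo ages was at 24.5 dpp.

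The piRNA pathway, which makes small RNAs that silence transposons and other transcripts in germ cells, held members of both kinds. Of 17 tested, 2 were called higher and 2 lower, and the median of −0.16 became 0.36 after centring. Neither share exceeds that of all genes tested, of which 13.5% were called higher and 25.5% lower. Tdrd6, a scaffold of the germ granules of late spermatocytes and spermatids, rose from 100.4, 124 and 62.9 FPKM to 419, 526 and 455 FPKM (2.32 ± 0.25, limma adjusted p = 0.00054). Ddx25, an RNA helicase of the same granules, rose from 101, 163 and 79.0 FPKM to 285, 291 and 232 FPKM. Piwil2 and Piwil4, the PIWI proteins that act before pachytene or throughout, were called lower, Piwil2 from 155, 169 and 126 FPKM to 98.3, 61.9 and 72.6 FPKM, and Piwil2 was not called after centring. Piwil1, the pachytene PIWI protein, measured 239.5, 291 and 156 FPKM and then 223, 185 and 189.7 FPKM and was not called (−0.16 ± 0.23, limma adjusted p = 0.56).

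Spermatogonial genes were called lower in 10 of 16 and higher in 1, with a median of −0.72, and 5 were lower after centring. Sohlh1, a factor of differentiating spermatogonia, fell from 8.40, 7.37 and 16.0 FPKM to 3.34, 1.37 and 2.36 FPKM (−1.76 ± 0.32, limma adjusted p = 0.0026). Dmrt1, which Sertoli cells also express, fell from 55.0, 44.8 and 84.4 FPKM to 20.4, 13 and 18.3 FPKM. Gfra1, the receptor of undifferentiated spermatogonia, fell from 1.55, 1.37 and 1.86 FPKM to 0.748, 0.706 and 0.675 FPKM (−0.60 ± 0.12, limma adjusted p = 0.004), and it was not called after centring. Kit, the receptor of differentiating spermatogonia, measured 9.78, 8.80 and 12.6 FPKM and then 6.19, 4.34 and 5.95 FPKM and was not called. Of 34 replication genes 20 were called lower and none higher, with a median of −0.93, and 7 were lower after centring. Mcm2, of the replicative helicase, fell from 17.8, 13.5 and 26.1 FPKM to 6.43, 3.57 and 5.33 FPKM (−1.70 ± 0.27, limma adjusted p = 0.0015). Mcm7, of the same helicase, measured 108, 107 and 106 FPKM and then 98.2, 104 and 94.8 FPKM, so that members of 1 complex did not move alike.

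Sertoli cell genes had the lowest median of all lists. Of 33 tested, 25 were called lower and none higher, the median was −1.32, and 7 were called lower and 1 higher after centring. Their summed FPKM was 5160, 4740 and 5761 at 24.5 dpp and 2293, 1840 and 2228 at 30.5 dpp, so that the ages did not overlap. Amh, the hormone of immature Sertoli cells, fell from 25.4, 18.2 and 59.5 FPKM to 6.96, 4.82 and 5.61 FPKM, a 5.93-fold lower mean (−2.21 ± 0.40, limma adjusted p = 0.0024). Sox9, the factor that founds the Sertoli lineage, fell from 14, 15.0 and 22.0 FPKM to 5.19, 5.32 and 5.00 FPKM (−1.52 ± 0.18, limma adjusted p = 0.0007). Clu, clusterin, the most abundant secreted protein of these cells, fell from 1499, 1366 and 2082 FPKM to 628, 520.0 and 645 FPKM (−1.45 ± 0.19, limma adjusted p = 0.0009). Fshr, the receptor of follicle stimulating hormone, fell from 3.37, 3.13 and 6.17 FPKM to 0.905, 1.55 and 1.47 FPKM. Replicate 3 was the highest of the 24.5 dpp libraries in each of these 4 genes. Amh and Sox9 were also called lower after centring, and Clu and Fshr were not. Tjp1, a protein of tight junctions, measured 40.2, 41.3 and 45.2 FPKM and then 28.4, 27.5 and 27.7 FPKM (−0.58 ± 0.11) and was not called.

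Leydig cell genes varied widely between testes of the same age. Of 18 tested, 1 was called higher and 1 lower, and the median of 0.33 turned to −0.10 without replicate 3 of 24.5 dpp. That library held the lowest value at its age of each of the 4 genes described next. Insl3, a peptide hormone of Leydig cells, measured 160.1, 98.1 and 7.18 FPKM at 24.5 dpp and 168, 148 and 258 FPKM at 30.5 dpp. Cyp17a1 and Hsd3b1, enzymes of androgen synthesis, measured 203, 128 and 22.4 FPKM and 187, 105 and 31.0 FPKM at 24.5 dpp, and 186, 88.1 and 147 FPKM and 161, 77.9 and 136 FPKM at 30.5 dpp. Star, which brings cholesterol into the mitochondrion, measured 8.77, 5.37 and 0.873 FPKM and then 23.0, 4.39 and 2.35 FPKM. None of the 4 was called at this spread with 3 libraries per age. Hsd17b3, the last enzyme of testosterone synthesis, stayed at 0.590 FPKM or less in all 6 libraries and did not pass the filter. Nr5a1, a factor of all steroid-making cells that Sertoli cells share, was the member called lower, from 26.2, 20.3 and 26.4 FPKM to 10.3, 7.68 and 9.92 FPKM, and neither it nor Egfl7, described next, was called lower after centring.

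The other somatic lists held few calls. Of 16 peritubular genes 1 was called lower, Ptch1, a receptor of hedgehog ligands, and of 13 endothelial genes 1 was called lower, Egfl7. Acta2, smooth muscle actin, measured 27.7, 6.86 and 26.1 FPKM and then 10.1, 16.5 and 7.12 FPKM. Pecam1, of endothelium, measured 4.32, 2.53 and 2.90 FPKM and then 2.44, 1.65 and 3.86 FPKM, and neither was called. The median of the peritubular list was −0.40 and became 0.03 after centring, and that of the endothelial list was −0.06 and became 0.19. Of 21 matrix genes 4 were called lower, among them Lamb2, a laminin, and of 17 genes of class I presentation and the interferon response 5 were called lower, among them Ifit1. Neither share exceeds by much the 25.5% of all genes tested that were called lower. After centring 1 matrix gene and 2 genes of class I presentation and the interferon response were lower, beside 4.93% of all genes tested. The median of the class I and interferon list was −0.31 and became 0.03 after centring. Of 4 tested red cell genes 1 was called higher, and Hba-a1, a haemoglobin chain, ranged from 44.7 to 429.5 FPKM over the 6 libraries.

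In the macrophage list 3 of 18 genes were called higher and none lower, as deposited and after centring, and this share of rises is near the 13.5% of all genes tested. Aif1, a calcium binding protein of macrophages, was listed at 0, 0 and 1.39 FPKM at 24.5 dpp and measured 11.4, 67.9 and 37.9 FPKM at 30.5 dpp (4.59 ± 0.63, limma adjusted p = 0.001). Adgre1, the F4/80 antigen, went from 0.0580, 0.0579 and 0.116 FPKM to 1.26, 2.39 and 2.79 FPKM, and Cx3cr1, the fractalkine receptor, from 3.39, 4.09 and 1.72 FPKM to 8.12, 8.61 and 6.32 FPKM. Cd68, a marker of macrophages, measured 1.72, 1.03 and 1.75 FPKM and then 1.14, 0.443 and 1.98 FPKM, and Csf1r, their growth factor receptor, measured 1.21, 0.843 and 0.853 FPKM and then 0.755, 0.617 and 1.55 FPKM. The median of the list was −0.15 and became 0.27 after centring and 0.13 after quantile normalization.

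**Figure D4:**
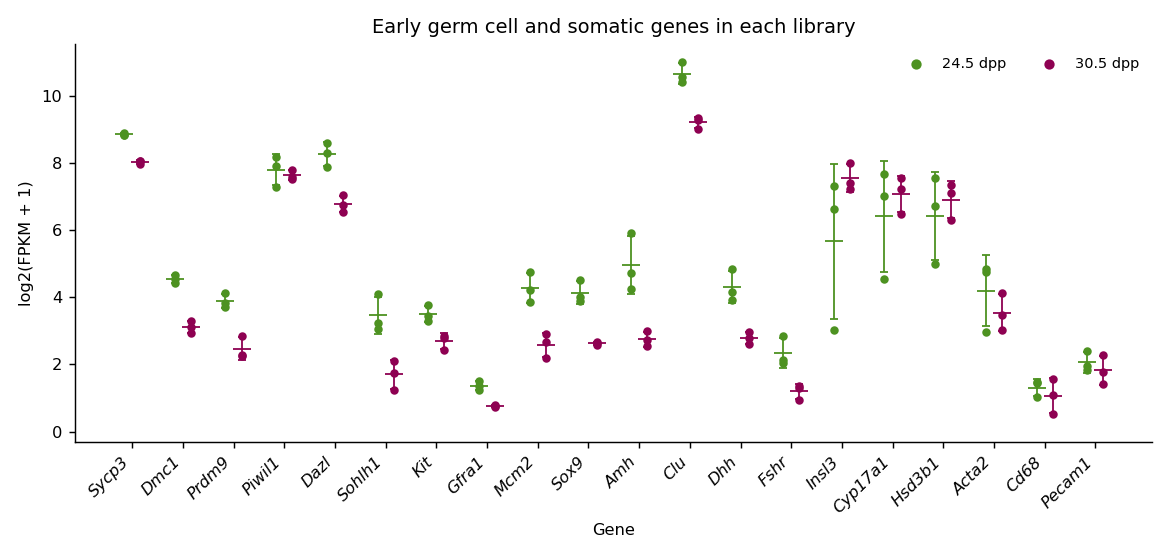
Level of 20 early germ cell and somatic genes in each library, as log2(FPKM + 1) on the y axis, with a point per library and a bar at the mean ± SD (n = 3). Sertoli cell genes such as Amh, Sox9 and Clu lie lower at 30.5 dpp without overlap, and the Leydig cell genes Insl3, Cyp17a1 and Hsd3b1 overlap, with 1 low library at 24.5 dpp.

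The largest rises and falls over all genes had different characters. By the rule of naming the 10 largest changes among called genes with separate ages, the rises were of Tnp1, Hils1, Spetex2d, Irgc, Smcp, Gsg1, Hmgb4, Spam1, 1700009N14Rikl and Fam24a. Smcp, a protein of the sperm mitochondrial sheath, went from 1.43, 1.66 and 1.39 FPKM to 158, 409.9 and 236 FPKM (6.64 ± 0.32, limma adjusted p = 3e-05). Irgc, a GTPase of spermatids, went from 0.561, 0.808 and 0.962 FPKM to 119, 335 and 198 FPKM. Spetex2d, a member of a rodent family with near-identical copies, was listed at 0.428, 0 and 0.662 FPKM and then at 141, 173 and 173 FPKM, and its reads may be shared with those copies. In all 10 the replicate with the lowest value at 30.5 dpp was replicate 1. The largest falls included those of Arpp19, Hmgb2, Selenoh, Eif3e, Scrg1, Smim8, Trappc2l, Cnpy2 and S100a11, and each of these other than Smim8 had a library listed at 0 at 30.5 dpp. Arpp19, a regulator of mitotic entry, was listed at 57.0, 61.7 and 53.9 FPKM and then at 0 in all 3 libraries, as it was at 36.5 and 53.5 dpp. Eif3e, a subunit of a translation initiation factor that cells in general use, was listed at 6.62, 6.64 and 7.06 FPKM and then at 0 in all 3. No fold is given for either. Smim8 fell with a small spread, from 14.4, 18.8 and 12.8 FPKM to 1.76, 1.35 and 1.16 FPKM (−2.74 ± 0.17, limma adjusted p = 7e-05).

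The genes called between 24.5 and 30.5 dpp were followed into the libraries of 14.5 and 36.5 dpp, which the comparison did not use. Between 14.5 and 36.5 dpp the mean log2 level was higher for 1529 of the 1553 genes called higher (98.5%), against 35.7% of all genes tested, and lower for 2848 of the 2926 genes called lower (97.3%). The median difference from 14.5 to 36.5 dpp was 3.20, −1.94 and −0.66 for the higher, the lower and all tested genes. The remaining counts include the compared libraries and describe the selected genes only. The selection itself nearly bars a highest mean at 24.5 dpp for a gene called higher, or at 30.5 dpp for one called lower. Of the genes called higher, 382 were under 0.5 FPKM in every library of 24.5 dpp and at 0.5 FPKM or more in every library of 30.5 dpp. The highest mean of the in vivo ages was at 53.5 dpp for 769 of the genes called higher, at 36.5 dpp for 450, at 30.5 dpp for 296 and at 8.5 dpp for 38. Of the genes called lower, 1133 were highest at 8.5 dpp, 1239 at 14.5 dpp and 540 at 24.5 dpp.

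The neighbouring intervals share libraries with the one described, so their values are given side by side. From 14.5 to 24.5 dpp, 1687 of 11589 genes were called higher (14.6%) and 2444 lower (21.1%), with 2 libraries of 14.5 dpp in the fit, since the third, which its label names an outlier, is listed at 0 for every gene. The total of 4131 became 2585 without replicate 1 of 14.5 dpp. From 30.5 to 36.5 dpp, 711 of 11227 were called higher (6.33%) and 135 lower (1.2%), and this count rested on single libraries. It was 8 genes in all without replicate 3 of 30.5 dpp, and 20, 17 and 60 without replicate 1, 2 or 3 of 36.5 dpp. The median change of the axoneme list was 3.13, 1.57 and 0.11 in the 3 successive intervals, and that of the axis and recombination list was 2.10, −0.85 and −0.37. The acrosome list had medians of 2.13, 2.67 and 1.21, over 21, 36 and 36 genes tested. Chromatin condensation had −0.32, 1.85 and 1.85, over 15, 20 and 20. Each median covers only the members that passed the filter in its interval. Members left out of the first interval had medians under 0.5 FPKM at both of its ages, so its medians do not describe the whole lists. Sertoli cell genes had −0.71, −1.32 and −0.41, and peritubular genes had −1.46, −0.40 and −0.29. In the fit that compares the change from 24.5 to 30.5 dpp with that from 30.5 to 36.5 dpp, the difference was at least 1 on the log2 scale with a limma adjusted p of at most 0.05 for 947 of 11689 genes in the positive direction (8.1%) and 482 in the negative (4.12%). It was positive for 32 of 52 axoneme genes and 20 of 36 acrosome genes, and negative for 5 of 33 Sertoli cell genes. The total of 1429 became 679, 586 and 908 without replicate 2 of 30.5 dpp, replicate 3 of 30.5 dpp or replicate 1 of 36.5 dpp.

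Explants of the same total age showed few calls over the same interval. From D16 to D22, 13 of 11134 genes were called higher (0.117%) and 5 lower (0.0449%), with 1646 at an unadjusted limma p under 0.05. The total of 18 became 8 without replicate 1 of D16 and 4 with the replicate number as a block. The genes called higher in vivo had a median change of 0.02 from D16 to D22, and those called lower had a median of 0.00. Summed over the acrosome list, the mean FPKM was 60.6 at D16 and 65.3 at D22, against 1675 and 5371 in vivo. Over the Sertoli cell list it was 7107 and 8314 in culture, against 5220 and 2120 in vivo. Akap4 was listed at 0 in all 3 libraries of D16 and at 0.0931, 0.257 and 0.227 FPKM at D22.

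The change from 24.5 to 30.5 dpp was tested against the change from D16 to D22 in 1 fit. It was more positive in vivo for 1271 of 12283 genes (10.3%) and more negative for 1965 (16.0%), by at least 1 on the log2 scale with a limma adjusted p of at most 0.05. Of the 1553 genes called higher in vivo 1205 were among the first, and of the 2926 called lower 1723 were among the second. The calls and this fit use the same libraries of 24.5 and 30.5 dpp, so that overlap follows largely from the selection and is not separate evidence. The difference was positive for 32 of 36 acrosome genes, 37 of 51 axoneme genes and 15 of 20 genes of the sheath and fibres, and negative for 25 of 35 Sertoli cell genes, 17 of 34 replication genes and 16 of 28 axis and recombination genes. Genes of later germ cells were at low levels in the explants on both days. The pachytene list summed to a mean of 137 FPKM at D16 and 143 FPKM at D22, against 3139 and 5742 FPKM in vivo.

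**Figure D5:**
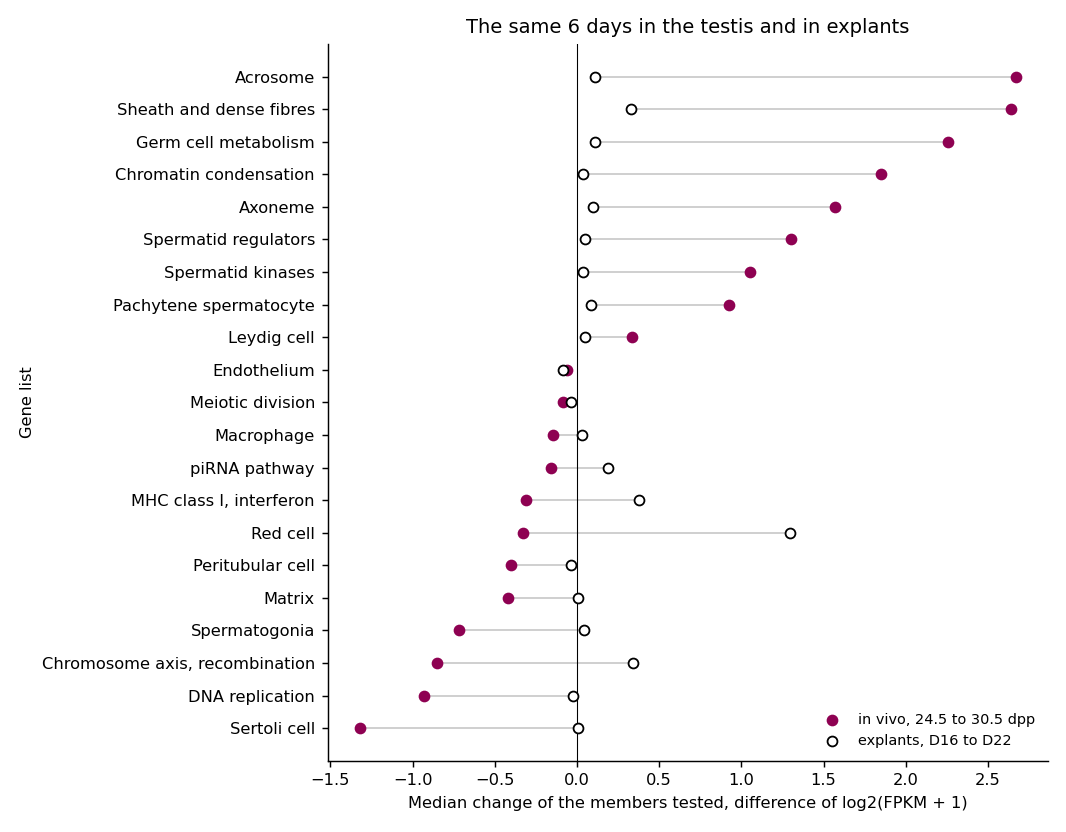
Median change of the tested members of 21 gene lists on the x axis, as the difference of log2(FPKM + 1), in vivo from 24.5 to 30.5 dpp (filled points) and in explants from D16 to D22 (open points). The filled points span −1.32 to 2.67, and most open points lie near 0, the farthest being the red cell list, with 1 gene tested in culture. Each point covers the members that passed the filter in its own comparison. In vivo and in explants these were 36 and 14 acrosome genes and 51 and 24 axoneme genes.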

How the data were processed

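Polyadenylated RNA of 30 rat libraries had been sequenced by the authors as single 50-base reads. The deposited FPKM values were made by the authors with STAR 2.5.2a on the rn6 build and with StringTie and Ballgown on RefSeq genes, and they give no read totals. One library of 14.5 dpp is 0 for every gene and was left out. Symbols were found for 17172 of 17322 gene IDs in a RefSeq table (GRCr8), which was used for names and promoters only.

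A gene entered the test where the median of 1 of the groups reached 0.5 FPKM, and the test was limma 3.58.1 (R 4.3.3) on log2(FPKM + 1), with Benjamini-Hochberg adjustment over all genes tested. Calls required an adjusted p no higher than 0.05 together with medians that differed at least 2-fold. For a difference between changes, the second requirement was a size of 1 or more on the log2 scale. Since FPKM + 1 is used, changes of low genes are understated. The fit was tested on simulated data for 24.5 against 30.5 dpp, where 170.6 of 200 genes shifted by 1.5 were recovered on average, with 5.55 false calls among 11492 genes. The simulated noise was normal, and no gene of low mean level was shifted. Far fewer genes changed than in the data, and the median of all genes was not moved, so these rates need not hold for the real comparison.

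The gene lists, their members and the comparison itself were chosen with earlier results of these data known. Named were the 10 largest rises and falls among called genes with separate ages, up to 6 called and 2 not called members per list, and a set of known markers. Some genes that were named by these choices are not reported here. Taf7l, Spa17, the genes shown with promoters and the somatic isozymes were added after their values were seen. The labels do not say which rat each testis came from, so p-values measure the spread between these libraries. Alternatives were another pseudocount, other filters, centring, quantile normalization, another variance prior, all groups in 1 fit, the replicate number as a block, and each library left out.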

Additional observations from a re-analysis of the deposited data

Results flagged for a closer look

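The change from 24.5 to 30.5 dpp differed from the change from D16 to D22 in explants for 3236 genes, by the limma test of the difference itself. Among the known markers the in vivo change exceeded that in culture, on the log2(FPKM + 1) scale, by 6.96 for Tnp1, 5.15 for Prm1, 3.58 for Prm2 and 3.54 for Tnp2. Tnp1, Prm1 and Prm2 were listed at 0 in every library of 24.5 dpp, so these differences depend on the pseudocount and are not folds. The difference was 5.77 for Acrv1, 2.23 for Acr, 5.92 for Akap4, 4.95 for Odf1, 2.53 for Pgk2 and 2.70 for Ccna1. It was −1.17 for Sycp3, −1.60 for Sox9, −2.46 for Amh, −1.07 for Fshr and −2.11 for Clu. Each rests on 3 libraries per age or day, and the explants and testes also differ in their levels at the start of the interval.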

How the results depend on the processing

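With the adjusted p alone, 2388 genes were higher and 5499 lower at 30.5 dpp. The lower calls were 567 after centring and 1936 after quantile normalization, and leaving out 1 library gave 1440 to 1668 higher and 2235 to 3358 lower. Leaving out 1 library gave 2585 to 4365 calls from 14.5 to 24.5 dpp (lowest without replicate 1 of 14.5 dpp), 8 to 1192 from 30.5 to 36.5 dpp, 8 to 19 from D16 to D22 (lowest without replicate 1 of D16), 2705 to 3669 for the difference from culture and 586 to 1795 for the difference from the next interval. With the replicate number as a block, 1554 genes were higher and 2951 lower from 24.5 to 30.5 dpp, and 4 genes in place of 18 were called from D16 to D22. Same-numbered libraries of 24.5 and 30.5 dpp deviated with correlations of −0.01, 0.10 and −0.03, so the numbers were not taken as pairs. The cause of these movements was not tested.

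After centring, the list medians that changed sign were 0.36 for the piRNA pathway, 0.42 for meiotic division, 0.030 for peritubular cells, 0.27 for macrophages, 0.19 for endothelium, 0.095 for red cells and 0.028 for class I presentation. After quantile normalization they were 0.0085 for meiotic division and 0.13 for macrophages. Gopc was 0.43 and 0.17 and Piwil1 0.36 after centring. Leaving out 1 library gave medians of −0.098 to 0.55 for Leydig cells (lowest without replicate 3 of 24.5 dpp), −0.36 to 0.060 for macrophages, −0.19 to 0.13 for endothelium and −0.97 to 0.064 for red cells. It gave −0.11 to 0.026 for Gopc, −0.052 to 0.27 for Ccdc39, −1.44 to 0.36 for Crem and −0.41 to 0.036 for Piwil1, which were not called with all libraries.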

Other observations

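Families gathered by symbol after results were known showed further members that moved. Of 17 Adam metalloproteases tested, membrane proteins of which several sit on the sperm surface, 11 were called higher and 1 lower, with a median of 2.63. Adam26a was listed at 0.0751, 0 and 0 FPKM at 24.5 dpp and measured 18, 34.7 and 30.3 FPKM at 30.5 dpp. Adam10, a sheddase of many cells, went from 15.6, 16.4 and 18.2 FPKM to 7.63, 5.31 and 7.04 FPKM (−1.22 ± 0.15, limma adjusted p = 0.00083) and was not called after centring. Of 21 Spata genes, named for expression in spermatogenesis, 17 were called higher and 1 lower, with a median of 1.67.

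Among 16 tubulins 3 were called higher and 3 lower, beside 13.5% and 25.5% of all genes tested, and after centring 5 were higher and none lower. Tuba4a rose from 2.09, 1.77 and 2.65 FPKM to 8.79, 22.4 and 15.8 FPKM (2.32 ± 0.31, limma adjusted p = 0.00092), while Tubb5 fell from 248, 193 and 207 FPKM to 77.1, 74.8 and 88.5 FPKM (−1.41 ± 0.14, limma adjusted p = 0.00044). Of 5 Rhox genes, homeobox genes of the X chromosome, 4 were called lower, also after centring, and Rhox8 went from 44.8, 47.7 and 57.7 FPKM to 19.2, 13.7 and 17.3 FPKM. The 53 cytosolic ribosomal protein genes had a median of −0.46 as deposited and −0.03 after centring.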
